A study of Mus musculus with 1183 samples.

Results

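Cycling Mac III cells were compared with non-cycling cells of the same labelled subtype in the lungs of newborn mice kept in hyperoxia. Mac III is the label of the largest macrophage subtype in these data. The 2 classes were chosen by read counts of 10 genes of the cell cycle, namely Birc5, Ccna2, Cdk1, Cenpf, Mki67, Nusap1, Rrm2, Top2a, Tyms and Ube2c. A cell was taken as cycling when at least 4 of them had at least 5 raw reads, and as non-cycling when at most 1 did. By this rule 66 of the 390 Mac III cells were cycling, 27 in the female and 39 in the male. Non-cycling cells numbered 73 and 58 on the 2 plates of the female and 72 and 71 on those of the male, and the 50 cells with 2 or 3 of the genes were left out. The whole series holds 1183 cells. They come from 1 female and 1 male mouse, both exposed to hyperoxia and taken at postnatal day 7, and distal lung was the tissue. The Mac III cells had been sorted into plates as CD45-positive, a marker of blood-lineage cells. The labels name no strain, transgene or other treatment. Each sex is 1 mouse, so a difference of sex and one between individual mice cannot be told apart. No cells from mice in room air were analysed here.

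Macrophages that live in the lung can renew themselves by division, and the alveoli fill with them around and after birth. A dividing cell first copies its DNA in S phase, for which it makes nucleotides, the replicative helicase and histones. It then condenses and separates its chromosomes in G2 and M phase with tubulin, kinesin motors and the kinetochore. In resting cells the DREAM repressor complex holds the later genes down through the CHR element, TTTGAA, often beside CCAAT boxes, which NF-Y binds. E2F factors control the earlier genes and read letters such as TTTGGCGC or TTTCCCGC.

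Sequences before the starts of called genes are shown first, for the 3 S phase and the 3 G2 and M phase genes with the smallest adjusted p that had 1 RefSeq promoter each, because the genes of both lists moved together. Each is the 250 bases before the start, from RefSeq on mouse build GRCm38.p6. Pclaf lies at chr9:65890073-65890322 (plus strand), Clspn at chr4:126556730-126556979 (plus strand) and Rrm1 at chr7:102441445-102441694 (plus strand). Ccnb2 lies at chr9:70421555-70421804 (minus strand), Cenpa at chr5:30666636-30666885 (plus strand) and Cdc20 at chr4:118437344-118437593 (minus strand). Each is printed 5′ to 3′ on the strand of its gene, and capitals mark CCAAT and TTTGAA on either strand (ATTGG is CCAAT on the other strand).
Pclaf: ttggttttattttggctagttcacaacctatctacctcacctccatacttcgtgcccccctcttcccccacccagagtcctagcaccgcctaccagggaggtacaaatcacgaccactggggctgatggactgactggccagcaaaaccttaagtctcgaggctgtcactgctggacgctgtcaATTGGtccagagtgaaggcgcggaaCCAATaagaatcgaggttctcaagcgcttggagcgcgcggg
Clspn: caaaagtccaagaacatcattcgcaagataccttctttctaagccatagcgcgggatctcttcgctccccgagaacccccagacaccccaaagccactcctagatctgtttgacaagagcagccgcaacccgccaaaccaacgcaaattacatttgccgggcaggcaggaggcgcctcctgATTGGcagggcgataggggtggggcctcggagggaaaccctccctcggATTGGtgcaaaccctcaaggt
Rrm1: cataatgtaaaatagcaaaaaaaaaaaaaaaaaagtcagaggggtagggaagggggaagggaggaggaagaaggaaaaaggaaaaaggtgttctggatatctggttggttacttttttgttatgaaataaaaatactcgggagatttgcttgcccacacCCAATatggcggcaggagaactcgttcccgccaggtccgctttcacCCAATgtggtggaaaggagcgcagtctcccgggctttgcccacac
Ccnb2: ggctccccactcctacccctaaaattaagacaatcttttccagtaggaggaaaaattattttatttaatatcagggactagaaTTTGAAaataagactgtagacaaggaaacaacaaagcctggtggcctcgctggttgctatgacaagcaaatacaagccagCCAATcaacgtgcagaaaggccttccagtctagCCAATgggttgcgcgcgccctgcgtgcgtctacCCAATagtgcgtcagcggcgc
Cenpa: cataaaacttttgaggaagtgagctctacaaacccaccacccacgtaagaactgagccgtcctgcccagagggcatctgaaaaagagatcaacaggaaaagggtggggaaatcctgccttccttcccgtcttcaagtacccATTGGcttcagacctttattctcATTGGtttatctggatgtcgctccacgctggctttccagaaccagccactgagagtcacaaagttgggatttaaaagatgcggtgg
Cdc20: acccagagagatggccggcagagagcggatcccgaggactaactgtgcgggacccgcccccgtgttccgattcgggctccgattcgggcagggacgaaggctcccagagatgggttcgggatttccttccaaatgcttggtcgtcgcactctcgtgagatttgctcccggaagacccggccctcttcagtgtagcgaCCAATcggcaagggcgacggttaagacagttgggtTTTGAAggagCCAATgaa
All 6 windows held at least 2 CCAAT, and those of Ccnb2 and Cdc20 also held TTTGAA. In Cdc20 the TTTGAA began 18 bases before the start, between a CCAAT at 53 bases and one at 8 bases. In Ccnb2 it lay upstream of 3 CCAAT that began at 87, 54 and 21 bases. Neither TTTGGCGC nor TTTCCCGC was found in these 6 windows.

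RefSeq promoters were matched for 35 of the 47 S phase genes called higher (40 promoters) and for 77 of the 94 G2 and M phase genes called higher (86 promoters). CCAAT was found on either strand in 67.5% of the S phase promoters and in 65.1% of the G2 and M phase promoters. The share was 33.8% over all 32851 promoters and 35.2% over those of genes tested. TTTGAA was found in 33.7% of the G2 and M phase promoters and 12.5% of the S phase promoters, against 15.99% of all promoters and 10.9% of those of genes tested. TTTGGCGC or TTTCCCGC was found in 22.5% of the S phase and 4.65% of the G2 and M phase promoters, against 1.3% of all and 2.42% of those of genes tested. In the 51 matched promoters of the genes called lower, CCAAT was in 39.2%, TTTGAA in 13.7% and the E2F letters in none. A match of letters is a description and not a bound site. CCAAT and TTTGAA share no letters where they stand in these windows.

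The labelled cell type was checked against markers, and Mac III cells of both classes carried several of those of alveolar macrophages, not all of them in most cells. All levels are given as CPM, the reads of a gene per 1000000 reads of the summed cells of 1 class and 1 animal, with the female before the male. Siglecf, a lectin receptor of alveolar macrophages, was at 105.2 and 73.6 CPM in cycling cells and at 110.5 and 65.5 CPM in non-cycling cells. Pparg, the nuclear receptor that drives the alveolar macrophage fate, was at 247.8 and 147.98 CPM in cycling and 212.6 and 170.6 CPM in non-cycling cells. For both genes the classes overlapped. Siglecf had at least 5 reads in 59.3% and 48.7% of cycling and 52.7% and 50.35% of non-cycling cells, and Pparg in 81.5% to 92.3% of cells of every library. Fabp4, a fatty acid binding protein of alveolar macrophages, was found in fewer cells, 3.7% and 17.9% of cycling and 17.6% and 13.99% of non-cycling cells. Chil3, a chitinase-like protein, was found in 19.1% to 25.9% of cells of a library.

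Each summed library held from 30324591 to 156998340 reads. The median cell had 1071602 reads among cycling and 973168 among non-cycling cells of the female, and 1111006 and 1138521 in the male. Thinned to 100000 reads per cell (1 shallower cell left out), the median number of genes detected was 4658 in cycling against 3970 in non-cycling cells of the female, and 4600 against 4167 in the male. Unthinned, those medians were 5661 against 5011 and 6171 against 5567. Markers of B, T and NK, dendritic, endothelial, mesenchymal and red cells each summed to at most 10.3 CPM in every library, and at least 2 genes of each list were at 0 in each cycling library. Mac IV, Mac V and monocyte, neutrophil and epithelial markers summed to between 18.8 and 212.8 CPM. Mast cell and basophil markers were at 513 CPM in the male cycling cells, where 1 cell carried at least 2 of them, and at most 0.154 CPM in the other libraries. Cells with at least 50 CPM of at least 2 markers of 1 other cell type made up 3.7% and 5.13% of cycling cells and 9.92% and 8.39% of non-cycling cells of the female and the male.

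The cycling share was 14.8% in the female (exact 95% Clopper-Pearson interval 10.01 to 20.85%) and 18.75% in the male (13.69 to 24.73%). These intervals cover counting error only, and with 1 animal per sex no test was made. The number of rule genes per cell had no gap between the classes: 33 cells had 2 of the genes, 17 had 3, 10 had 4, 11 had 5, and 16 had all 10. Cells just outside the rule, with 3 genes, had a median of 264.7 CPM of the 10 genes together, and cells just inside it, with 4 genes, a median of 345.2 CPM. All 10 cells with 4 genes had Mki67 among them. All cells with 3 genes were left out of the comparison, and 13 of those 17 had Mki67.

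**Figure D1:**
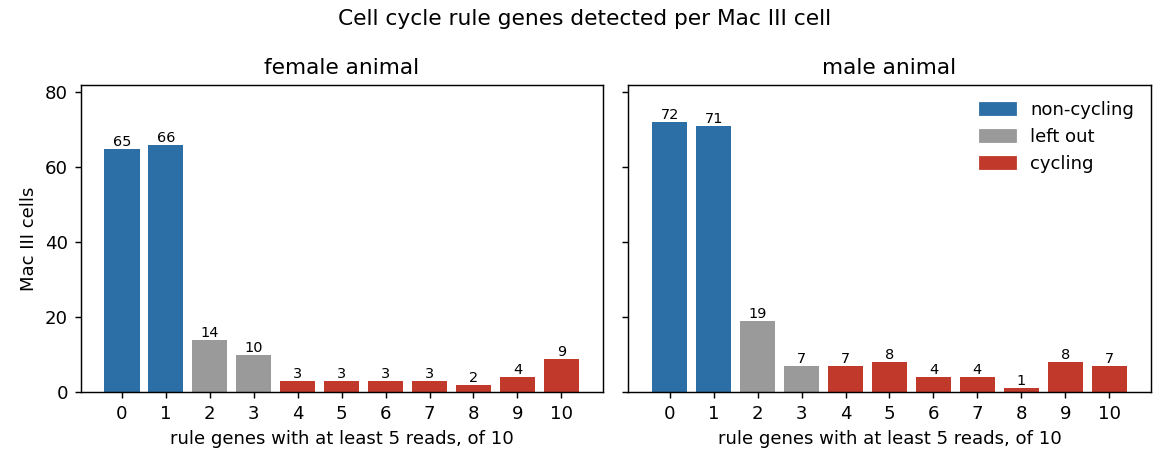
Number of Mac III cells (vertical axis) by the number of the 10 rule genes with at least 5 reads (horizontal axis), for the female and the male; colours mark the classes. Cells at 0 and 1 make up the largest bars (65 and 66 cells in the female, 72 and 71 in the male), and cycling cells extend up to all 10 genes.

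The rule genes themselves are a description, since they chose the cells. Mki67, a nuclear protein of all cycling phases, was at 845 and 1023 CPM in cycling cells and at 14.4 and 20.7 CPM in non-cycling cells. Top2a, the topoisomerase that untangles copied chromosomes, was at 578 and 591 CPM against 1.11 and 2.45 CPM. Cdk1, the kinase that starts mitosis, was at 203.8 and 166.6 CPM against 3.93 and 2.75 CPM. Mki67 had at least 5 reads in all 66 cycling cells, Top2a in 54 and Cdk1 in 48. In non-cycling cells Mki67 passed 5 reads in 68 cells, more than any other rule gene.

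Cells of the cycling class covered several phases. Of the 66 cycling cells, 51 had at least 5 reads of at least 4 of 10 S phase genes outside the rule, and 46 had them for at least 4 of 10 M phase genes outside the rule. Both sets passed in 36 cells, only the S phase set in 15, only the M phase set in 10 and neither in 5. The share with the M phase set was 81.5% in the female (22 of 27 cells) and 61.5% in the male (24 of 39). M phase genes at this level were found in 0% of non-cycling cells (upper limit of the 95% interval 1.34%) and in 0 of 50 left-out cells. S phase genes at this level were found in 50 non-cycling cells (18.2%, interval 13.86 to 23.3%) and in 21 of the 50 left-out cells. Non-cycling here means few reads of the 10 rule genes, and the class includes cells with S phase messages.

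Cycling cells differed from non-cycling cells mostly in genes of DNA copying and division, which rose, and in a smaller set of genes, which fell and of which some were on lists of lysosome, lipid and inflammatory genes. edgeR's quasi-likelihood test with the animal as a block called 1.79% of 12773 genes higher in cycling cells and 0.423% (54 genes) lower at an adjusted p under 0.05, and 1504 genes had an unadjusted p under 0.05. Of the higher calls, 47 were on a list of S phase genes, 94 on one of G2 and M phase genes, 21 on one of chromatin and tubulin genes, 13 on one of DNA repair genes and 53 on none of these. Genes of these lists go with the genes that picked the cells, so their calls are not independent evidence. None of the 54 lower calls was on those lists. The direction was higher on all 4 plates for 99.6% of the higher calls and lower on all 4 for 50 of the 54, against 10.8% and 10.5% of all genes tested. The plates hold the same cells as the libraries tested, so this agreement follows in large part from the calls and is no replication of them. Over all genes tested, both cycling libraries lay above both non-cycling libraries for 22% and below them for 19.9%.

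The lower calls depended on the fit: without the animal block 1.21% of genes were called higher and 5 genes lower. Without cells carrying markers of another type 1.24% were called higher and 23 genes lower. On the first plates alone 89 genes were called higher and 3 lower, and on the second plates alone 75 and 1. Leaving out 1 library, with no block, gave shares of 0.943% to 2.96% higher and 0.00767% to 1.42% lower, with fewest calls without the male non-cycling cells and most without the male cycling cells. In the fit with the animal as a block, p-values rest on how far the class difference varied between these 2 mice. The estimate of that spread is in part shared over genes, and it does not cover other mice. All levels are shares of the reads of a class and RNA per cell was not measured, so less of a message per cell and more of other messages cannot be told apart.

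**Figure D2:**
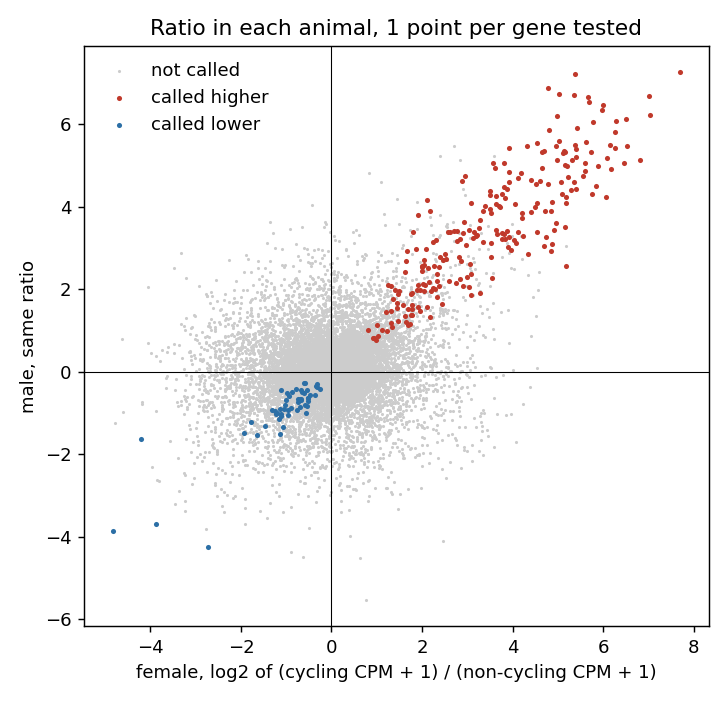
Each point is a gene tested; the horizontal axis is the log2 ratio of cycling to non-cycling CPM (plus 1) in the female and the vertical axis the same in the male. Genes called higher lie to the upper right and the 54 genes called lower to the lower left.

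Of the 89 S phase genes tested, 47 rose (52.8%, against 1.79% of all genes tested) and 0 fell. The median log2 fold change of the list was 2.72, against -0.08 over all genes tested. Pclaf, the PCNA partner that sits on replication forks, was at 375.1 and 245.8 CPM in cycling cells and at 0.811 and 0.618 CPM in non-cycling cells. The classes did not overlap (log2 fold change 8.67, SE 0.29, edgeR adjusted p = 6.17e-06). The median cycling cell had 374.8 and 151.1 CPM, and the median non-cycling cell of both animals had no read of it. Clspn, which passes the checkpoint signal from stalled forks, was at 142.03 and 106.4 CPM against 0.107 and 0.0446 CPM (log2 fold change 10.64, SE 0.51, edgeR adjusted p = 4.13e-05). Hist1h4d, a histone H4 gene, was at 409 and 654 CPM against 51.3 and 76.5 CPM (log2 fold change 2.97, SE 0.18, edgeR adjusted p = 0.000117). Non-cycling cells held a low level of it, and next to no reads of Clspn.

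All of Mcm2 to Mcm7, the 6 subunits of the replicative helicase, rose; they and the genes of the next sentences were chosen after their values were seen. Mcm5 was at 184.6 and 204.8 CPM in cycling cells against 13.9 and 18.1 CPM in non-cycling cells. Mcm3 was at 241.3 and 254.3 CPM against 43.2 and 38.03 CPM. Pcna, the sliding clamp of DNA polymerases, was at 314.3 and 334.97 CPM against 111.5 and 85.2 CPM (log2 fold change 1.66, SE 0.20, edgeR adjusted p = 0.00346), the smallest of these steps. Of the genes that load the helicase, Cdc6 was at 30.2 and 49.3 CPM against 0 and 0.134 CPM and Cdt1 at 169.7 and 154.4 CPM against 32.9 and 29.2 CPM. Gmnn, the inhibitor of Cdt1, rose as well, from 18.9 and 22.5 CPM to 147.2 and 98.5 CPM. Ccne2, a cyclin that brings cells into S phase, was at 25.9 and 84.8 CPM against 1.21 and 1.80 CPM.

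Nucleotide supply rose in part. Of 35 nucleotide synthesis genes, 4 rose (11.4%, against 1.79% of all genes tested) and none fell (median log2 fold change 0.29). Rrm1, the large subunit of ribonucleotide reductase, was at 176.1 and 248.6 CPM in cycling and 14.5 and 16.4 CPM in non-cycling cells (log2 fold change 3.69, SE 0.26, edgeR adjusted p = 0.000157). Tk1, thymidine kinase, was at 146.5 and 218.4 CPM against 7.53 and 20.05 CPM. For these genes of DNA precursors the log2 fold changes were 3.69 and 3.79. Paics, of purine synthesis, was at 153.8 and 146.2 CPM against 59.7 and 42.6 CPM, a smaller step of 1.499 log2 units.

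Among G2 and M phase genes 94 rose, 71.2% of those tested against 1.79% of all genes tested. None fell, and the median log2 fold change was 5.17. Ccnb2, a cyclin that activates Cdk1, was at 439 and 325.5 CPM in cycling cells against 7.34 and 7.21 CPM in non-cycling cells (log2 fold change 5.62, SE 0.25, edgeR adjusted p = 3.01e-05). Cenpa, the histone variant that marks centromeres, was at 222.3 and 250.8 CPM against 8.81 and 9.77 CPM. Cdca3, a regulator of entry into mitosis, was at 266.8 and 213.5 CPM against 4.19 and 1.32 CPM. For these 3 genes the median non-cycling cell of both animals had no read. At least 5 reads were found in 2.29% and 6.29% of non-cycling cells for Ccnb2 and in 3.82% and 3.5% for Cdca3, and 1 cell held 36.98% and 57.7% of their non-cycling reads. Cdc20, which activates the anaphase-promoting complex, was at 132.4 and 76.8 CPM against 0.0134 and 0.0382 CPM. Ndc80, of the kinetochore, was at 64.7 and 86.5 CPM against 0.0335 and 0 CPM, and Bub1, of the spindle checkpoint, at 82.1 and 71.9 CPM against 0.0670 and 0.0892 CPM.

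Motors and scaffolds of the spindle were among the genes with the largest steps. Kif4, a chromosome-bound kinesin, was at 53.4 and 65.4 CPM in cycling cells against no read in non-cycling cells. It had at least 5 reads in 35 of the 66 cycling cells. Its level over all cycling cells was 6188 times a floor of 3 reads over all non-cycling cells. That figure is no lower bound on the fold change, since reads copied from 1 molecule are counted apart. Pbk, a mitotic kinase chosen after its values were seen, was likewise without a read in non-cycling cells, and stood at 4368 times the floor. Kif2c, a kinesin that takes microtubules apart, was at 31.2 and 73.5 CPM against 0.0201 and 0.0191 CPM. Aspm, a protein of spindle poles, was at 89.3 and 108.9 CPM against 0 and 0.567 CPM (log2 fold change 9.29, SE 1.27, edgeR adjusted p = 0.00562). With genes at 0 set against the floor of 3 reads, the median of the G2 and M phase list was 5.17.

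Chromatin and tubulin genes rose from higher levels by smaller steps. Of 34 genes, 21 rose (61.8%, against 1.79% of all genes tested) and none fell. The median log2 fold change was 1.40, and 11 rose without the animal block. Tubb5, a beta tubulin, was at 3420.3 and 3867 CPM in cycling cells against 994 and 1263 CPM in non-cycling cells (log2 fold change 1.62, SE 0.11, edgeR adjusted p = 0.000133). Tuba1b, an alpha tubulin, was at 1351 and 1111 CPM against 345.4 and 281.9 CPM. Stmn1, which takes up free tubulin, was at 452 and 434 CPM against 20.5 and 28.6 CPM. For all 3 genes, picked as called, the classes did not overlap, as for 22% of all genes tested in this direction. The histone variant gene H2afv was at 236.1 and 306.3 CPM against 33.98 and 28.1 CPM.

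Of 42 DNA repair genes, 13 rose and none fell (median log2 fold change 2.16). Brca1, of repair by recombination, was at 60.9 and 47.8 CPM in cycling cells against 1.45 and 0.217 CPM in non-cycling cells. Chek1, the kinase that halts cells with unfinished replication, was at 57.8 and 41.9 CPM against 1.55 and 1.53 CPM.

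**Figure D3:**
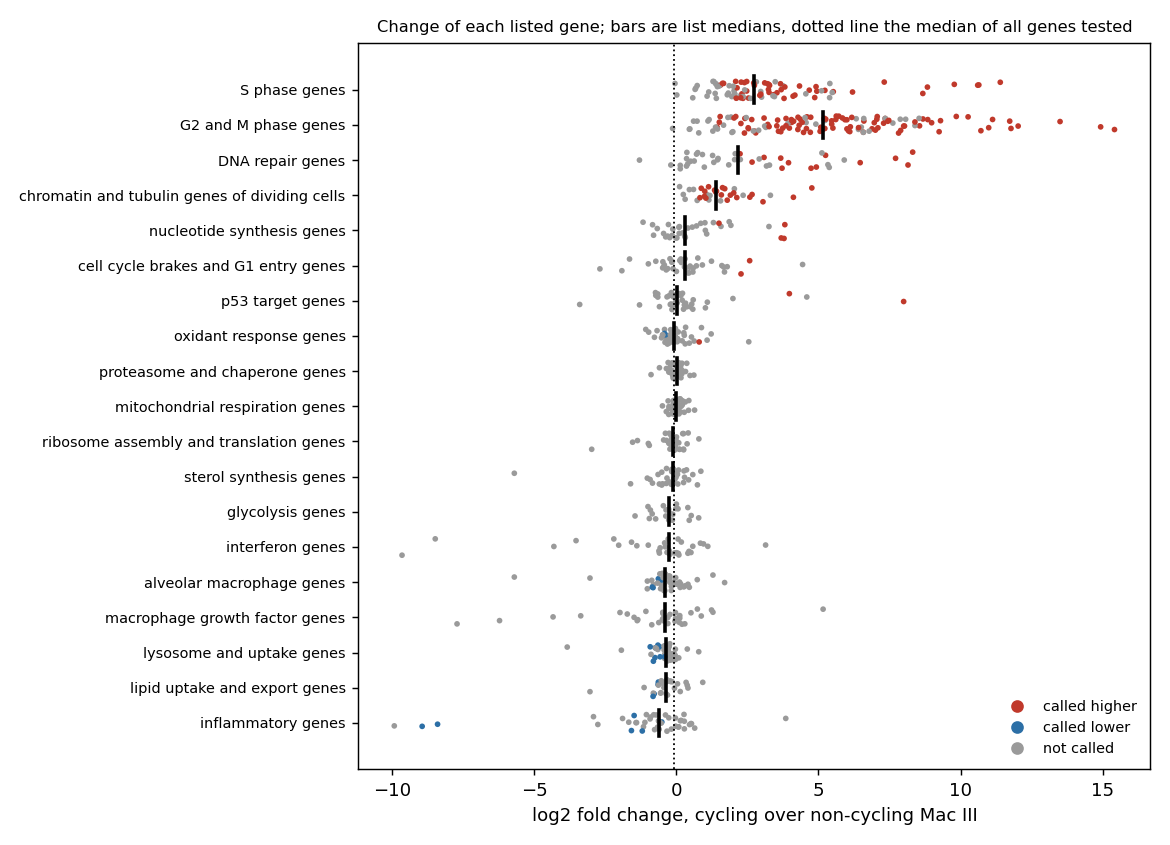
Each point is a listed gene; the horizontal axis is the log2 fold change of cycling over non-cycling cells, black bars are list medians and the dotted line is the median of all genes tested (-0.08). The medians of the S phase, G2 and M phase, DNA repair, and chromatin and tubulin lists lie at 2.72, 5.17, 2.16 and 1.40; those of the other lists drawn lie between -0.62 and 0.29. The lists of other cell types and of MHC class II genes are not drawn.

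Of the 53 higher calls on none of the 4 lists, the 10 with the largest fold change under the naming rule were Cdkn3, Pkmyt1, Slfn9, Nrm, Atad5, Zfp367, Cdkn2d, Haus1, Syce2 and Rbl1. Pkmyt1, the kinase that inhibits Cdk1, was at 49.1 and 55.9 CPM in cycling cells against 3.43 and 2.72 CPM in non-cycling cells. Cdkn3, a phosphatase of cyclin-dependent kinases, was at 103.6 and 69.3 CPM against 5.88 and 1.46 CPM. Haus1, of the augmin complex of the spindle, was at 91.3 and 38.4 CPM against 9.99 and 9.80 CPM. It was called in 5 of 18 alternatives, and 1 cell held 32.6% of its cycling reads. Several of these genes are known parts of the cell cycle that the lists did not hold. Among 39 genes that brake the cycle or act at G1 entry, 2 rose (5.13%, against 1.79% of all genes tested) and none fell. The median log2 fold change of these genes was 0.29. Rbl1, the pocket protein p107, was at 83.03 and 99.9 CPM against 19.99 and 16 CPM, and Cdkn2d, an inhibitor of Cdk4 and Cdk6, at 43.99 and 81.3 CPM against 9.52 and 9.51 CPM.

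Cdkn1a, the p53 target that inhibits cyclin-dependent kinases, was at 1003 and 1014 CPM in cycling cells and at 654 and 896 CPM in non-cycling cells. Both cycling libraries lay above both non-cycling libraries, and the difference did not pass the test (log2 fold change 0.32, SE 0.15, edgeR adjusted p = 0.455). Cdkn1a had at least 5 reads in 96.3% and 94.9% of the cycling cells of the female and the male, and in 80.9% and 93.7% of the non-cycling cells. Cdkn1b and Myc did not pass either (edgeR adjusted p = 0.891 and 0.738). Of 38 p53 target genes, 2 rose (5.26%, against 1.79% of all genes tested) and none fell. The median log2 fold change was 0.03, and 0 rose without the animal block. The 2 genes were Ckap2 and Gtse1, both also on the G2 and M phase list.

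Genes of lysosomes and uptake were among the genes that fell. Of 42 tested, 8 fell and none rose (median log2 fold change -0.36, against -0.08 for all genes), and without the animal block 1 fell. Ctss, cathepsin S, a protease of lysosomes and antigen processing, was at 4254 and 4303 CPM in cycling cells and at 6867 and 6828 CPM in non-cycling cells. Both cycling libraries lay below both non-cycling libraries (log2 fold change -0.75, SE 0.08, edgeR adjusted p = 0.00211), and Ctss was called in 12 of 18 alternatives. The median cell had 3895 and 3594 CPM among cycling and 6576 and 6394 CPM among non-cycling cells. Psap, prosaposin, the precursor of sphingolipid activator proteins, was at 1288 and 1272 CPM against 2137 and 2123 CPM (log2 fold change -0.81, SE 0.11, edgeR adjusted p = 0.00538). The other called genes were Ctsb, Ctsz, Ctsl and Lgmn, which are lysosomal proteases, Lyz2, lysozyme, and Tyrobp, the adaptor of activating receptors. Lyz2 was at 12269 and 11301 CPM against 14590.00 and 15117 CPM and was called in 4 of 18 alternatives.

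Of 29 genes of lipid uptake and export, 4 fell (13.8%, against 0.423% of all genes tested) and none rose. The median log2 fold change was -0.36, and none was called without the animal block. Plin2, the coat protein of lipid droplets, was at 1103 and 1358 CPM in cycling cells against 1854 and 2152 CPM in non-cycling cells (log2 fold change -0.78, SE 0.11, edgeR adjusted p = 0.00629). Lpl, lipoprotein lipase, was at 1775 and 1899.5 CPM against 2831 and 2590.00 CPM (log2 fold change -0.63, SE 0.11, edgeR adjusted p = 0.0155), and was called in 8 of 18 alternatives. Fabp5, a fatty acid binding protein, was at 532 and 887 CPM against 1046 and 1269 CPM, and Lipa, the lysosomal acid lipase, at 739.8 and 802 CPM against 1128 and 1157 CPM. Fabp5 was higher in cycling cells, by 0.16 log2 units, on the second male plate and lower on the other 3.

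Of 43 oxidant response genes, 1 rose (2.33%, against 1.79% of all genes tested) and 2 fell (4.65% against 0.423%). None was called without the animal block. The median log2 fold change of the list was -0.10, against -0.08 over all genes tested, so the list as a whole stayed near all genes. Fth1, the heavy chain of the iron store ferritin, was at 24968 and 23790.00 CPM in cycling cells against 31213 and 30577 CPM in non-cycling cells (log2 fold change -0.42, SE 0.06, edgeR adjusted p = 0.0091). Ftl1, the light chain, was at 14944 and 15603 CPM against 18540.00 and 19306 CPM; a pseudogene copy, Ftl1-ps1, is counted apart in the table and was also called, so how reads were split between them is uncertain. Sod1, the cytosolic superoxide dismutase, rose from 258.8 and 388.3 CPM to 509 and 665 CPM, and was called in 5 of 18 alternatives.

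**Figure D4:**
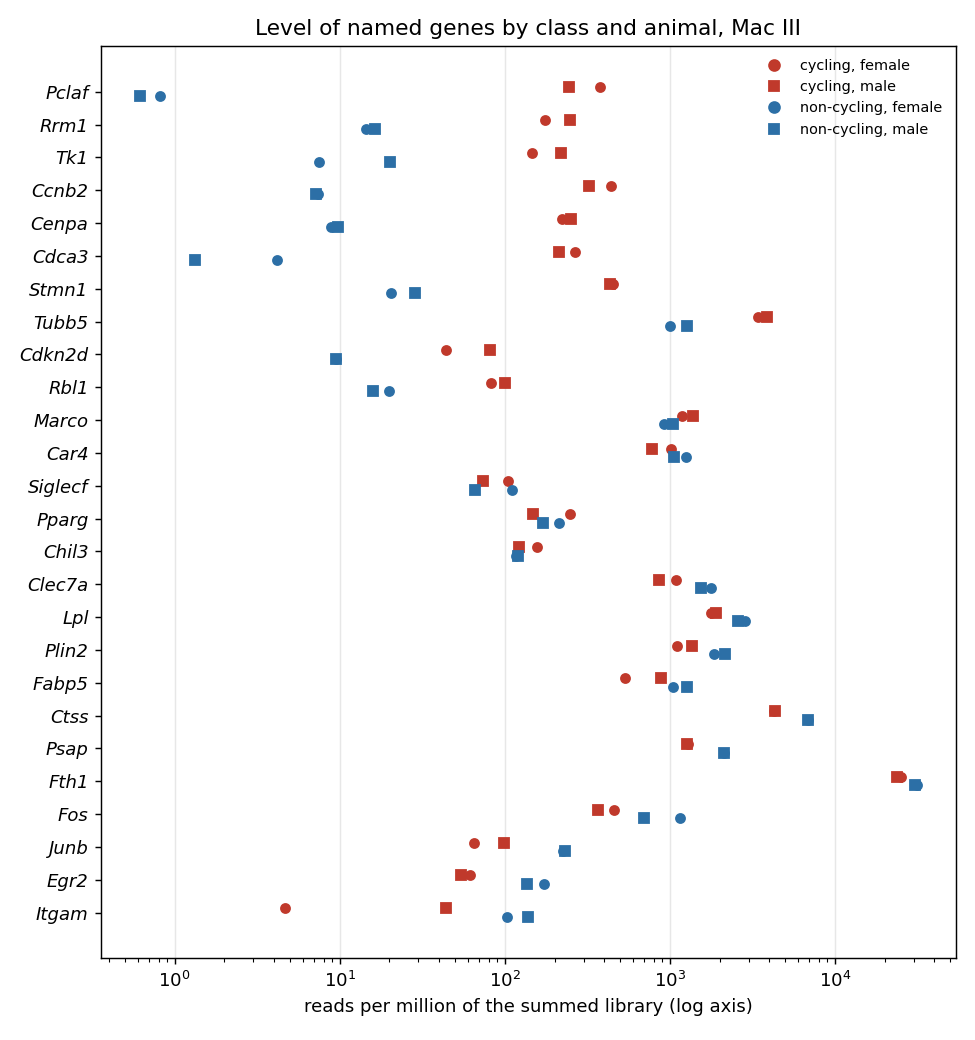
Level of named genes in CPM (horizontal log axis) in the summed cells of each class and animal. Cycling points lie to the right of non-cycling points for genes from Pclaf to Rbl1 and to the left for genes from Clec7a to Itgam, and overlap for Siglecf and Pparg.

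Some genes that respond to stimulation fell in cycling cells. Of 44 inflammatory genes, 6 fell (13.6%, against 0.423% of all genes tested) and none rose. The median log2 fold change of the list was -0.62, and without the animal block 2 fell. Markers of neutrophils, which also express many inflammatory genes, were lower beside it. Their summed level was 69.3 and 71.3 CPM in cycling against 117.7 and 115.4 CPM in non-cycling cells, none of the 4 tested was called (median log2 fold change -3.92), and cells with at least 2 of them numbered 0 in cycling and 7 and 3 in non-cycling cells. Cxcr2, a chemokine receptor of neutrophils, was at 1.62 and 0.434 CPM against 16.8 and 19.1 CPM (log2 fold change -4.47, SE 1.15, edgeR adjusted p = 0.122). Without all cells carrying markers of another type 2 inflammatory, 3 lysosome, 1 lipid and 1 alveolar macrophage genes fell; the part of such cells in the result was not tested further. Fos, an early response transcription factor, was at 460.4 and 368.7 CPM in cycling cells against 1154 and 700.1 CPM in non-cycling cells (log2 fold change -1.20, SE 0.15, edgeR adjusted p = 0.00366), and was called in 12 of 18 alternatives. The median cell had 433 and 292.6 CPM among cycling and 891 and 545 CPM among non-cycling cells. Junb, its partner in the AP-1 complex, was at 64.9 and 98.3 CPM against 224.2 and 230.1 CPM (log2 fold change -1.58, SE 0.23, edgeR adjusted p = 0.00698), and was lower on all 4 plates. Egr2, a zinc finger factor of the early response, was at 61.9 and 54.1 CPM against 173.4 and 136.9 CPM. Ccl6, a chemokine that alveolar macrophages make in quantity, was at 9185 and 13724 CPM against 13865 and 16695 CPM (log2 fold change -0.51, SE 0.08, edgeR adjusted p = 0.0134). Ccl2 and Cxcl3, chemokines named here because they make up the count, rested on 4 and 2 non-cycling cells with at least 5 reads, and 1 cell held 63.2% and 52.4% of their non-cycling reads.

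The 10 genes with the largest falls under the naming rule were Itgam, Tlr7, Ceacam1, Junb, Egr2, Napsa, Pik3r5, Cd200r4, Fos and Mmp19. Itgam, the integrin CD11b, was at 4.68 and 43.8 CPM in cycling cells against 103.6 and 138.4 CPM in non-cycling cells. It is also a gene of neutrophils and monocytes, and without cells carrying markers of another type its log2 fold change was -3.28 (edgeR adjusted p = 0.0705), which is no call. Ceacam1, an inhibitory adhesion receptor, was at 38.8 and 61.5 CPM against 124.4 and 178.98 CPM. Tlr7, a receptor of single-stranded RNA, was at 17.4 and 32.9 CPM against 69.6 and 93.4 CPM. All 3 genes, picked as called, were lower in both cycling libraries than in both non-cycling libraries, as were 19.9% of all genes tested. Pik3r5, a phosphoinositide 3-kinase subunit, Napsa, an aspartic protease, Cd200r4, an activating receptor, and Mmp19, a matrix metalloproteinase, each fell by 1.18 to 1.42 log2 units. Of the 10 genes Mmp19 was called in the fewest alternatives, 3 of 18, and Junb in the most, 13.

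Of 52 alveolar macrophage genes, 4 fell (7.69%, against 0.423% of all genes tested) and none rose. The median log2 fold change was -0.39, and none was called without the animal block. The 4 genes were Clec7a, the beta-glucan receptor, Lpl, Fabp5 and Lgals3, a galectin. Clec7a was at 1094 and 858 CPM in cycling cells against 1769 and 1548 CPM in non-cycling cells (log2 fold change -0.85, SE 0.12, edgeR adjusted p = 0.00684). Marco, a scavenger receptor, was at 1189.7 and 1375 CPM against 915 and 1049 CPM (log2 fold change 0.31, SE 0.12, edgeR adjusted p = 0.321). It had at least 5 reads in 77.8% and 89.7% of cycling and in 67.9% and 64.3% of non-cycling cells. The other defining genes did not pass the test either, and their values went both ways. The log2 fold change was -0.44 for Car4, -0.52 for Ly75, 0.15 for Chil3, 0.26 for Ear1 and 0.74 for Wfdc21 (edgeR adjusted p = 0.164, 0.165, 0.908, 0.655 and 0.206). Fabp4 was at 3.07 and 18.9 CPM in cycling against 97.4 and 38.2 CPM in non-cycling cells (log2 fold change -3.04, SE 0.93, edgeR adjusted p = 0.198), with no overlap, and was called in 4 of 18 alternatives. For Siglecf the difference was -0.03 log2 units (SE 0.26), and for Pparg -0.07 (SE 0.20).

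Maf, a transcription factor that restrains self-renewal of macrophages, was at 0.0989 and 0.369 CPM in cycling and 0.328 and 1.01 CPM in non-cycling cells. The genes of the receptor for the growth factor GM-CSF did not pass the test. Csf2ra, its specific chain, was at 416 and 554 CPM against 563 and 712 CPM (edgeR adjusted p = 0.179). Csf2rb, the chain that signals, was at 639 and 507 CPM against 729 and 547 CPM (edgeR adjusted p = 0.611).

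**Figure D5:**
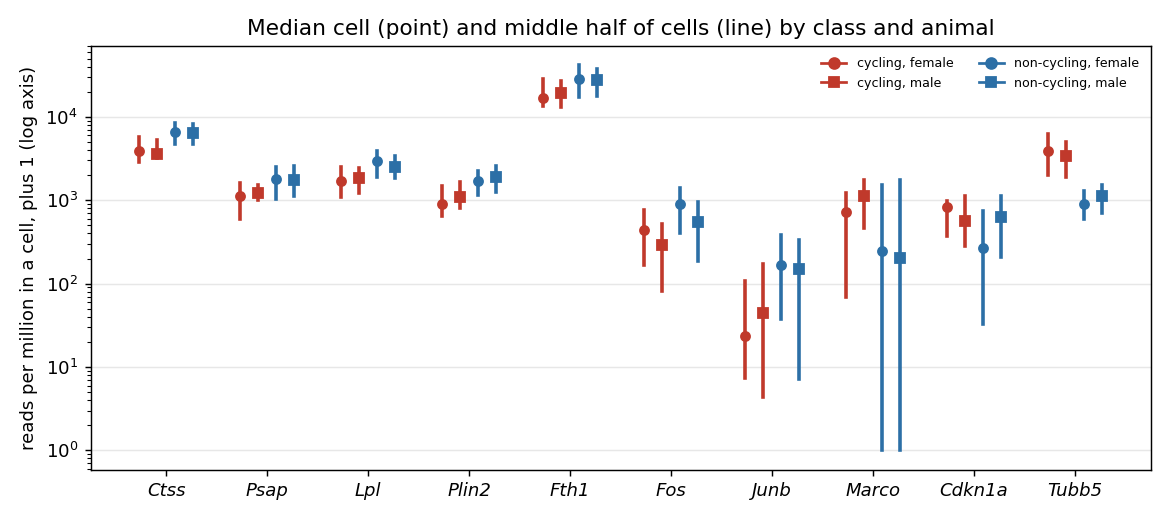
CPM in single cells (vertical log axis, plus 1) for 10 genes; points are median cells and lines run from the lower to the upper quartile, by class and animal. Median cycling cells lie lower for Ctss, Psap, Lpl, Plin2, Fth1, Fos and Junb and higher for Tubb5; for Marco the lower quartile of non-cycling cells is at no read.

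Other lists held no call by edgeR's test. These were 36 growth factor, 32 interferon, 22 glycolysis, 34 sterol, 42 proteasome and chaperone, 41 respiration, 35 ribosome assembly and translation, and 5 MHC class II genes. Their median log2 fold changes lay between -0.60 (MHC class II) and 0.01 (proteasome and chaperone). Hsp90ab1, a chaperone, was at 1799 and 1621 CPM in cycling cells against 1808 and 1723 CPM in non-cycling cells. Cox4i1, a subunit of cytochrome oxidase, was at 1168 and 1436 CPM against 1166 and 1351 CPM. For both genes the classes overlapped. Eef1a1, the translation elongation factor, was at 2765 and 2148 CPM against 3673 and 2713 CPM (edgeR adjusted p = 0.0553).

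The contrast was also taken in Mac IV, a C1q-positive macrophage subtype of the same plates, in which 10 of 63 and 16 of 78 cells were cycling by the rule. The difference between the contrasts of Mac III and Mac IV passed edgeR's test for 2 of 13772 genes (0.0145%; 715 genes at an unadjusted p under 0.05). It passed for none of the named genes with a test (lowest edgeR adjusted p 0.104, for Fabp5), and a difference that does not pass is not shown to be absent. Ctss was at 837 and 1269.8 CPM in cycling and 2421 and 2618 CPM in non-cycling Mac IV cells, so it was lower in the cycling cells of that subtype too. Fos was at 1342 and 3766 CPM in cycling against 2949.7 and 4328 CPM in non-cycling Mac IV cells. Lyz2 was at 5736 and 7001 CPM in cycling Mac IV cells against 19417 and 19696 CPM in non-cycling ones, beside the smaller step in Mac III given above.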

How the data were processed

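Single cells sorted into plates were sequenced after Tn5 tagmentation, and no molecular identifiers are named, per the labels' protocols. The values are raw read counts per gene and cell, which the authors deposited as whole numbers for 18072 genes. STAR 2.5.2b, HTSeq 0.10 and the build name GRCh38, a human name for mouse data, stand in the submitters' processing notes, so no coordinate was taken from the files; how reads of near-identical or overlapping genes were assigned is not given in the sources used here. Cell subtypes are the submitters' labels. Doublets were not called. The 10 cells of other sorting gates were not used.

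Reads were summed per animal and class (66 cycling and 274 non-cycling cells, 4 libraries). edgeR 4.0.16 in R 4.3.3 was run with its quasi-likelihood test, TMM factors, the filterByExpr filter and animal as a block. The rule genes stayed in the library sizes and out of the test. P-values were adjusted by the Benjamini-Hochberg method over 12773 genes, and an adjusted p under 0.05 was a call. It gave 228 higher and 54 lower calls. Mac III and Mac IV were compared by an interaction term over 8 summed libraries. A fold change is a fitted value, and for genes near 0 in 1 class it depends on the prior count. The SE beside it is the log2 fold change without its sign divided by the square root of the test's F statistic. That SE is no separate estimate of spread. DESeq2 1.42.0 was an alternative.

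Both classes come from the same 2 animals, per the labels, which is why the block is in the fit. The correlation of an animal's deviations between the classes was 0.06, with 1 CPM added before taking logs. In simulated counts for this comparison with 1 common dispersion (13494 genes) the test called 0 of 40 genes changed 2-fold, 2 of 39 changed 8-fold and 23 of 38 changed 32-fold. With the dispersion trend (13348 genes) it called 3 of 40, 27 of 39 and 27 of 36.

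Named genes were those called in the same direction in both animals, averaging 50 CPM or more in whichever class was higher, with the largest fold change (10 from the cell cycle lists, 10 higher on none of them, 10 lower). Up to 4 called members of each list with the smallest adjusted p were added, or the 2 of highest level where none was called, and defining and control genes whatever their values. Some named genes are not reported here. Members and lists were chosen with earlier results of these data known. Alternatives covered the block, scaling, filter, tool, thinning, rule, plates, sequencing run, depth, cells with other markers and each library left out.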

Additional observations from a re-analysis of the deposited data

Results flagged for a closer look

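C1qb, a chain of the complement component C1q, passed the test of a difference between the contrasts of Mac III and Mac IV (-7.258 log2 units, edgeR adjusted p = 0.0245). In Mac III it rested on 1 read in the cycling cells against 1034 reads in non-cycling cells of the female and 1 in those of the male, and 1 female cell held 99.8% of the former. In Mac IV it was at 6068 and 7511 CPM in cycling and 6689 and 8310 CPM in non-cycling cells of the female and the male. Mcemp1, a mast cell-expressed membrane protein, passed it too (14.89 log2 units, edgeR adjusted p = 0.0376). It had no read in the 10 and 16 cycling Mac IV cells, and its reads in non-cycling Mac IV cells (61.5 and 59.2 CPM) came from 8 and 5 cells with at least 5 reads, with 40.9% and 69.5% of them in 1 cell each. The fitted value of Mcemp1 depends on the prior count and is no bound. In Mac III it was at 577 and 535 CPM in cycling against 640 and 562 CPM in non-cycling cells.

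For 3 named genes the cycling to non-cycling ratio went one way on both plates of the female and the other way on both plates of the male. The female minus male difference of the log2 ratios of CPM plus 1 was 3.155 for Treml4, a receptor of monocytes, 1.887 for Tagln, a smooth muscle actin-binding protein, and -1.068 for Cdh1, E-cadherin. Tagln rested on 78 reads in 3 cells with at least 5 reads among the female cycling cells, 0 in the male ones, and 39 and 48 reads in non-cycling cells. These differences were not tested, and none of the 3 genes passed the test of cycling against non-cycling cells.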

How the results depend on the processing

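The replicate block is the animal, shared by both classes. With no replicate block 1.21% of genes tested were called higher and 0.0391% lower, against 1.79% and 0.423% with it. DESeq2 with the block called 4.41% higher and 2.71% lower, of genes to which it gave an adjusted p. The first plates gave 0.754% and 0.0254%, the second plates 0.637% and 0.00849%, and the sequencing run that both animals share 1.19% and 0.171%. Lower calls were 0.668% with no filter on low counts, 1.13% with cells thinned to 100000 reads, 0.192% in a shared depth range and 0.182% without cells with markers of another type; higher calls there stayed within 1.5 times the main count. Leaving out 1 of the 4 libraries in turn, with no block, gave 0.943% to 2.96% higher and 0.00767% to 1.42% lower; the lone library of a class is then assumed to vary like the others. The remaining alternatives left both counts within 1.5 times. The cycling shares of the female and the male were 11.5% and 11.5% with at least 6 rule genes. They were 13.3% and 13.9% thinned to 100000 reads, 14.3% and 17.3% at 10 reads and 20.3% and 22.1% with at least 3 genes.

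Of 2295 alternative values for named genes, 1940 were counted as unchanged, 20 gained a call, 0 reversed with a call involved and the others lost the call. The unchanged ones include values of each animal alone, which had no test, and values without a call whatever their sign. Cdh1, for example, had a log2 fold change of -0.15 in the main fit and 0.46 in the male alone. Of the 40 named genes called higher, 18 were called in all 18 alternatives with a test. Of the 24 called lower, 0 were, with 3 to 13 alternatives each. The difference between Mac III and Mac IV gave 3 calls with no block and 2 with RLE factors. Causes were not tested. In simulated counts 0 of 40 genes changed 2-fold were called with 1 common dispersion and 3 of 40 with the dispersion trend.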
